A study of Mus musculus with 16 samples.

Results

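The 10 genes described here encode the enzymes that make serine from a glycolytic intermediate and the enzymes that carry serine's carbon through the folate cycle. They are Phgdh, Psat1 and Psph for serine synthesis, Shmt2, Mthfd2, Mthfd1l and Aldh1l2 for the mitochondrial folate branch, and Shmt1, Mthfd1 and Aldh1l1 for the cytosolic branch. They were taken by name, and each matched 1 gene of the 51912 in the count table. The study measured liver RNA from 16 male mice aged 13 weeks by poly-A selected, stranded RNA-seq. From 10 weeks of age the mice ate a control amino acid diet or one low in isoleucine, an essential branched-chain amino acid, for 3 weeks. A fast of 16 h is given for all samples, and tissue was collected from fasted or refed mice, with no refeeding time stated. This gave 4 groups of 4 libraries: control fasted, low isoleucine fasted, control refed and low isoleucine refed. The labels give no strain, genotype or other treatment. The sample titles carry 1 number per group (1, 2, 7 and 9 in the order just given), and whatever that number marks cannot be told apart from the group.

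Serine is made from 3-phosphoglycerate in a short chain: PHGDH oxidises it, PSAT1 transfers an amino group from glutamate, and PSPH removes the phosphate. Serine hydroxymethyltransferases then split serine into glycine and a one-carbon unit bound to tetrahydrofolate, SHMT2 in mitochondria and SHMT1 in the cytosol. Inside mitochondria MTHFD2 and MTHFD1L carry the unit on to formate, which leaves for the cytosol, and ALDH1L2 can burn it to carbon dioxide with gain of NADPH. In the cytosol the trifunctional MTHFD1 reloads formate onto folate for purine, thymidylate and methionine synthesis, and ALDH1L1 disposes of surplus formyl groups. Liver is a main folate store of the body. Psat1, Psph, Phgdh, Shmt2 and Mthfd2 are among the textbook targets of ATF4, the transcription factor that is made when amino acids are short.

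Library totals ran from 24368656 to 34002955 estimated read counts. Levels are given as CPM, read counts scaled to library size, with TMM factors. Hepatocyte markers were abundant in every library (5 genes, summed 53985 to 107682 CPM). Summed markers of Kupffer cells, the resident macrophages of liver, were 251 to 325 CPM in control fasted, 153 to 208 in low isoleucine fasted, 170 to 352 in control refed and 128 to 270 in low isoleucine refed libraries. Library 4 of the control refed group had the highest sum of the 16 for Kupffer, endothelial, stellate, lymphocyte, neutrophil and dividing cell markers. The neutrophil marker Ly6g was at 0 in at least 12 libraries. In whole liver RNA, fewer cells of a type and less RNA per cell cannot be told apart. Nothing in the labels says whether mice shared cages or litters, so p-values measure the spread between these samples.

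The 10 genes differed in level far more than any of them differed between groups. Per kb of merged exon, ALDH1L1's transcript led, with a median of 117 CPM per kb over the 16 libraries, followed by Shmt1 at 58.3, Mthfd1 at 37.1 and Shmt2 at 35.6. A step separated these 4 genes from the rest: the lowest Shmt2 library had 25.8 CPM per kb. The highest library of any gene below it had 6.05, for Mthfd2, and the highest Psph library had 1.68. Below the step came Psph (median 0.597), Psat1 (0.265), Mthfd2 (0.263), Mthfd1l (0.242), Phgdh (0.0482) and Aldh1l2 (0.0386 CPM per kb). The whole cytosolic branch was thus in the upper group, and of the mitochondrial branch and serine synthesis only Shmt2 was. Aldh1l1, Shmt1 and Mthfd1 did not overlap one another, whereas Mthfd1 and Shmt2 did, and so did each further pair of neighbours below Psph.

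**Figure D1:**
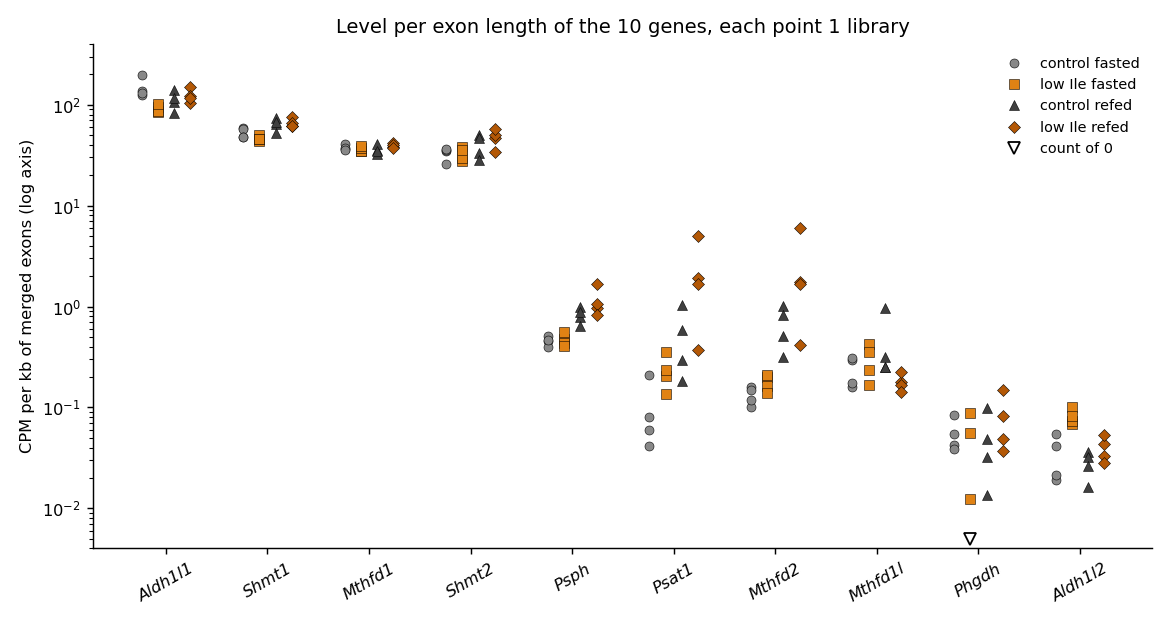
Level of each of the 10 genes in CPM per kb of merged exon (log axis), 1 point per library, coloured and shaped by group, with genes ordered by median. Aldh1l1, Shmt1, Mthfd1 and Shmt2 sit at 25.8 CPM per kb or more in every library, the other 6 genes at 6.05 or less. The open triangle is the low isoleucine fasted library in which Phgdh had a count of 0.

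Refeeding raised Psat1 and Psph, 2 of the 3 serine synthesis genes, and Mthfd2 on both diets. On the control diet, Psat1, Psph and Mthfd2 were higher in refed than in fasted livers by 5.38-fold, 1.80-fold and 5.03-fold, and none of the 9 tested genes was lower. On the low isoleucine diet the same 3 genes were higher by 9.71-fold, 2.42-fold and 13.9-fold, and Shmt1 was higher by 1.43-fold. These calls came from edgeR's quasi-likelihood test, with Benjamini-Hochberg adjustment across the 14920 genes that passed a low-count filter and a threshold of 0.05; Phgdh did not pass the filter. Aldh1l2 passed it only through the low isoleucine fasted group, where it was highest, and is described on its own. Counts given out of 8 members leave it out, and counts out of 9 include it. On the control diet 3 of the other 8 members passed, where 17.1% of all tested genes did (8.91% up and 8.2% down). On the low isoleucine diet 4 of 8 passed, where 21.4% of all tested genes did (9.6% up and 11.8% down). The median log2 fold change of the 8 members was 0.56 for control and 0.52 for low isoleucine mice, beside 0.01 and 0.02 over all tested genes. Refeeding moved a large share of the transcriptome, so these counts stand against a high background.

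**Figure D2:**
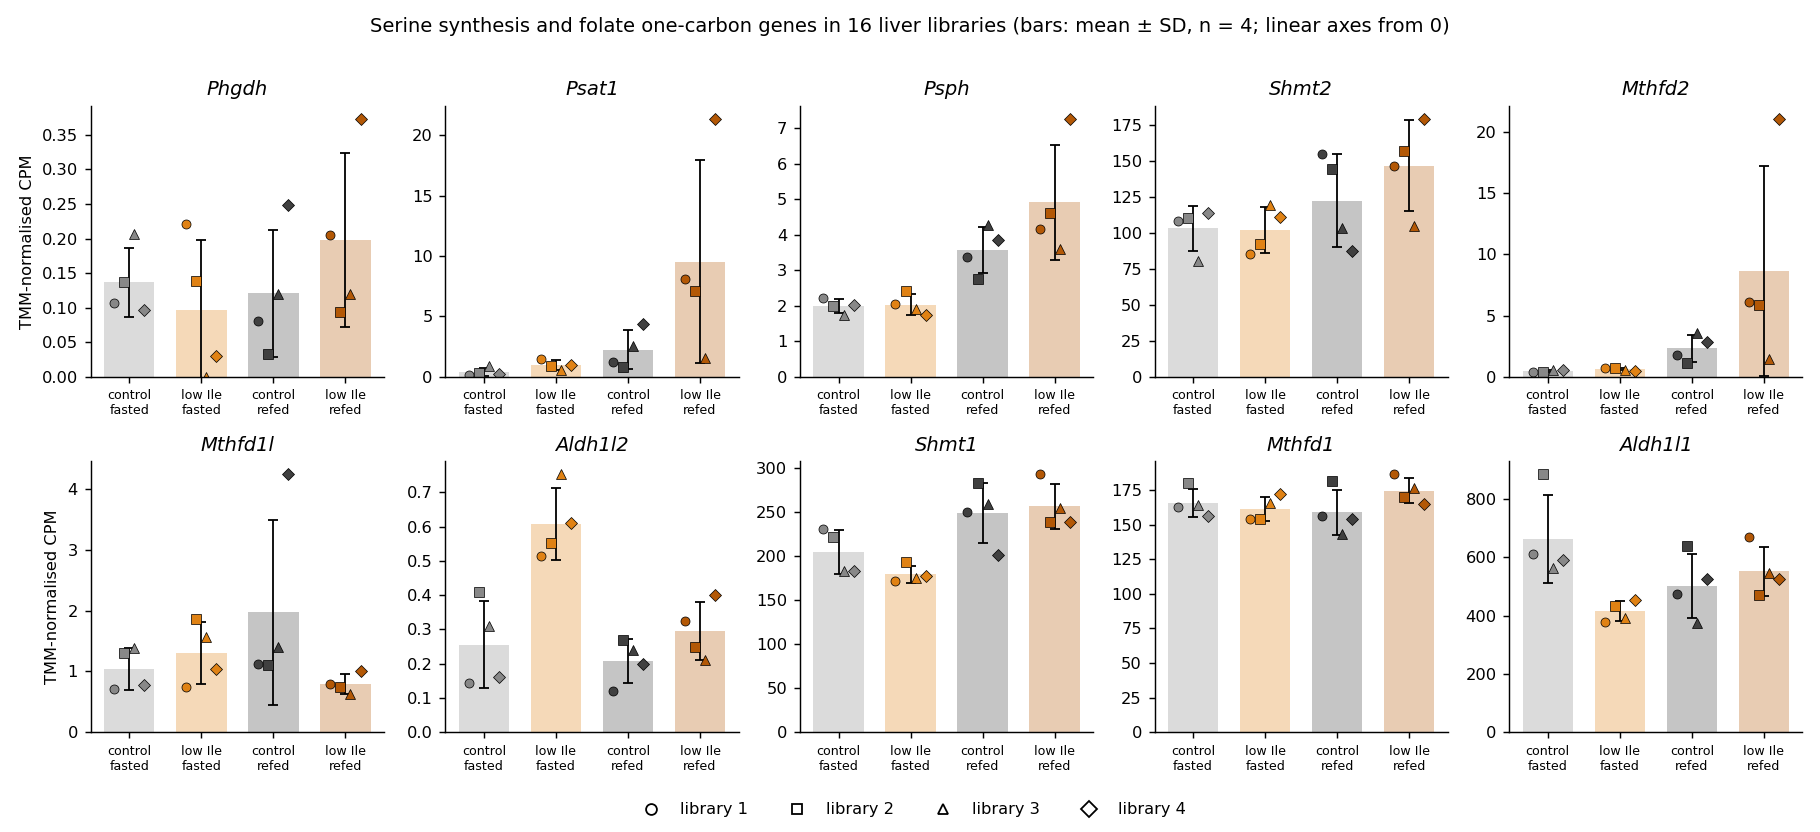
TMM-normalised CPM of each of the 10 genes in the 16 libraries, on linear axes that start at 0; symbols are libraries, bars the mean of a group and whiskers its SD (n = 4). Psat1, Psph and Mthfd2 are higher in both refed groups, with library 4 of the low isoleucine refed group at the top of all 3 panels, while Mthfd1 sits between 143 and 187 CPM throughout.

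Psat1 encodes the aminotransferase of serine synthesis (ENSMUSG00000024640, GENCODE M21 chr19:15904678-15947337, minus strand). In the control fasted libraries it had 0.178, 0.341, 0.898 and 0.257 CPM, and in the control refed libraries 1.25, 0.773, 2.51 and 4.39 CPM. In the low isoleucine fasted libraries it had 1.51, 0.864, 0.572 and 1.01 CPM, and in the low isoleucine refed libraries 8.13, 7.10, 1.59 and 21.4 CPM. All 4 low isoleucine refed libraries were above all 4 fasted ones on that diet, though library 3 was barely so; on the control diet one fasted library, the third, was above the lowest refed one. The rise was a log2 fold change of 3.28, SE 0.70, adjusted p = 0.00398 for low isoleucine mice, and a log2 fold change of 2.43, SE 0.77, adjusted p = 0.0419 for control mice. The control-diet call of Psat1 was lost under 12 of the 27 alternatives. Among them were the fit without control refed library 4 (log2 1.83, adjusted p = 0.135) and limma-voom (adjusted p = 0.166). Leaving out control fasted library 3 gave 3.11 (adjusted p = 0.0335). Control refed library 4 also had the highest Kupffer marker sum of all libraries, 352 CPM. The part of such cells in its Psat1 was not tested. For low isoleucine mice the rise was 2.51 (adjusted p = 0.0135) without library 4 of the refed group.

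Psph, the phosphatase that completes the chain (ENSMUSG00000029446, chr5:129765558-129787449, minus strand), moved less but more evenly. Its values were 2.20, 1.98, 1.73 and 2.02 CPM in control fasted and 3.38, 2.75, 4.27 and 3.85 CPM in control refed libraries. In the low isoleucine groups they were 2.06, 2.42, 1.90 and 1.74 CPM fasted and 4.17, 4.62, 3.59 and 7.26 CPM refed. Every refed library was above every fasted library on either diet. The log2 fold change of 0.84, SE 0.22, adjusted p = 0.0133 in control mice and the log2 fold change of 1.28, SE 0.22, adjusted p = 0.000555 in low isoleucine mice both passed, and both passed under each of the 27 alternatives tried. Psph shares exon sequence with Cct6a on the opposite strand; the libraries were stranded, but whether the counting used strand is not given. Cct6a, a chaperonin subunit gene, had log2 fold changes of 0.27 on the control diet (adjusted p = 0.168) and 0.10 on the low isoleucine diet (adjusted p = 0.63) for the same comparison.

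Phgdh, whose enzyme opens the chain (ENSMUSG00000053398, chr3:98313170-98339990, minus strand), was near the detection limit in these livers. Its estimated counts were 0 to 13 per library, that is 0 to 0.373 CPM. Group means were 0.137 ± 0.050 CPM (SD, n = 4), 0.0973 ± 0.101 CPM (SD, n = 4), 0.120 ± 0.0921 CPM (SD, n = 4) and 0.198 ± 0.126 CPM (SD, n = 4) for control fasted, low isoleucine fasted, control refed and low isoleucine refed. The single library at 0 (low isoleucine fasted, the third) had 32403307 counts, which allows up to 0.0903 CPM by counting error. All 4 groups overlapped, and at this depth no difference was detectable; without the filter on low counts its adjusted p was 0.454 or more in every comparison. Psat1 and Psph thus changed in livers where the gene of the first enzyme of the chain was barely counted in any group.

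**Figure D3:**
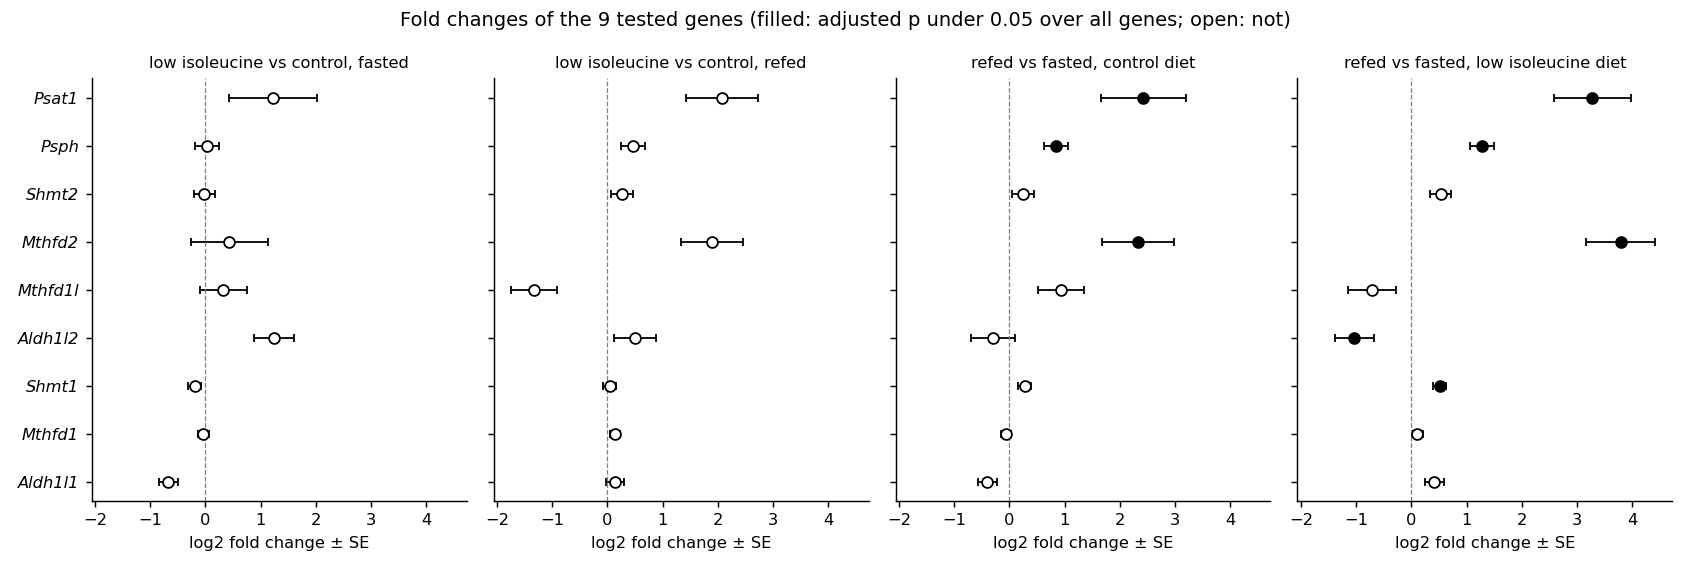
Log2 fold change ± SE (horizontal axis) of the 9 tested genes in the 2 diet comparisons and the 2 refeeding comparisons; filled points passed an adjusted p of 0.05 over all genes, open points did not. Filled points occur only in the refeeding panels, 3 for control and 5 for low isoleucine mice, the 5 including Aldh1l2, which passed the low-count filter only through the low isoleucine fasted group.

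Mthfd2, a mitochondrial dehydrogenase and cyclohydrolase (ENSMUSG00000005667, chr6:83305691-83325908, minus strand), had the largest refeeding rise of the 9 tested members on the low isoleucine diet. Fasted livers held little of it, 0.355, 0.409, 0.553 and 0.513 CPM in control mice and 0.698, 0.725, 0.572 and 0.489 CPM in low isoleucine mice. After refeeding it reached 1.77, 1.11, 3.55 and 2.85 CPM in control mice and 6.08, 5.86, 1.44 and 21.1 CPM in low isoleucine mice. The refed libraries were above the fasted ones on both diets, but the low isoleucine refed group alone spanned 1.44 to 21.1 CPM. The change was a log2 fold change of 2.33, SE 0.65, adjusted p = 0.0214 for control mice, and a log2 fold change of 3.79, SE 0.63, adjusted p = 0.000598 for low isoleucine mice. Without library 4 the low isoleucine rise was 2.84 (adjusted p = 0.000655), 7.17-fold rather than 13.9-fold. On the control diet the call was lost when control fasted library 1, 2 or 4 or control refed library 3 was left out (adjusted p = 0.0514 to 0.0641), with limma-voom (adjusted p = 0.130) and without the low-count filter (adjusted p = 0.0703). Mthfd2 is known for its high level in dividing cells; the summed CPM of 10 dividing-cell markers was 30.3 to 32.4 fasted and 31.9 to 39.0 refed in control mice (2 of 9 tested markers rose), and 25.1 to 32.1 fasted and 27.9 to 30.9 refed in low isoleucine mice (1 of 9 rose). The part of dividing cells in the Mthfd2 values was not tested.

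Since Psat1 and Mthfd2 rose together, the 250 bases before their RefSeq transcript starts are shown (GRCm38.p6, both on the minus strand and printed 5′ to 3′ on the gene's own strand). Capitals mark every match, on either strand, to CCAAT, the box bound by NF-Y, and to TGNTGNAA, a loosened form of TGATGNAA, the core shared by C/EBP-ATF response elements. Psat1 spans chr19:15925060-15925309 and Mthfd2 chr6:83317605-83317854.
Psat1: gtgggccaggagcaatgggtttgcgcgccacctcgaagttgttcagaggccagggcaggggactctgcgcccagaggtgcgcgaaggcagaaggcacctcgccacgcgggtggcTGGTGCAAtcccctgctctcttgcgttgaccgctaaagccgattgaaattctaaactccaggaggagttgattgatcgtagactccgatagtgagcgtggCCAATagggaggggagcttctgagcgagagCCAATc
Mthfd2: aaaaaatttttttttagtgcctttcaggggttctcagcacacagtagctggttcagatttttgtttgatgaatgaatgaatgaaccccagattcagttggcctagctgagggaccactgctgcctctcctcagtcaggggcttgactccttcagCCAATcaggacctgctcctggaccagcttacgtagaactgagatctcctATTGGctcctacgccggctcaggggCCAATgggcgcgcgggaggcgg
In Psat1 the capitals are TGGTGCAA, beginning 136 bases before the start, and CCAAT boxes 36 and 6 bases before it. In Mthfd2 there are 3 CCAAT matches, beginning 96, 47 and 22 bases before the start, the middle one on the opposite strand as ATTGG. RefSeq lists a second, downstream start of Psat1, and the 250 bases before that one (chr19:15924623-15924872) held 0 matches to any of these motifs. A window was found for 9 of the 10 genes (Aldh1l2 had none), and a gene is counted below if any of its windows held the motif. CCAAT was in 7 of the 9 (Aldh1l1, Mthfd1, Mthfd2, Phgdh, Psat1, Psph and Shmt1), and in 33.8% of all 32851 windows of this length. Among these, Mthfd1 and Aldh1l1 did not pass for refeeding on either diet in the main fit. TGNTGNAA was in 2 of the 9, Phgdh and Psat1, and in 12.8% of all windows; the loosened form was adopted after the sequences had been seen. The strict TGATGNAA was in none of the 9 and in 3.45% of all windows, which says only that these letters are not in these 250 bases.

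No other gene of the mitochondrial branch passed for a refeeding rise in the main fit. Shmt2, the mitochondrial serine hydroxymethyltransferase (ENSMUSG00000025403, chr10:127517123-127522444, minus strand), was at 103 ± 15.4 CPM (SD, n = 4) in fasted and 122 ± 32.4 CPM (SD, n = 4) in refed livers of control mice, a log2 fold change of 0.25, SE 0.19, adjusted p = 0.445. On low isoleucine it had 85.3, 92.1, 119 and 111 CPM fasted and 147, 157, 105 and 179.5 CPM refed. Refed libraries 1, 2 and 4 were above all fasted ones and library 3 fell among them; the log2 fold change of 0.53, SE 0.19, adjusted p = 0.0610 lay just outside the threshold. It passed under 7 of the alternatives, including DESeq2 (adjusted p = 0.0397) and without refed library 3 (log2 0.66, adjusted p = 0.0205). Under no alternative did its refeeding change on the low isoleucine diet reverse.

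Mthfd1l, the mitochondrial formyl-tetrahydrofolate synthetase that releases formate (ENSMUSG00000040675, chr10:3973118-4167081, plus strand), was low and passed in no comparison. Fasted libraries had 0.711, 1.30, 1.38 and 0.770 CPM on the control diet and 0.734, 1.87, 1.57 and 1.04 CPM with low isoleucine. Refed libraries had 1.13, 1.11, 1.40 and 4.24 CPM on the control diet and 0.793, 0.744, 0.628 and 1.00 CPM with low isoleucine. Library 4 of the control refed group stood apart, and it is the library with the highest sums of 6 non-hepatocyte marker lists (Kupffer markers 352 CPM, against 170 to 242 in the other 3). Whether those cells contributed to its Mthfd1l was not tested. The log2 fold change with refeeding was 0.94 on the control diet (adjusted p = 0.142), and 0.21 without that library (adjusted p = 0.700). With low isoleucine it was -0.71 (adjusted p = 0.264).

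Aldh1l2, the mitochondrial formyl-tetrahydrofolate dehydrogenase (ENSMUSG00000020256, chr10:83487450-83534140, minus strand), was higher in fasted than in refed livers on low isoleucine. It had 0.514, 0.553, 0.753 and 0.611 CPM in low isoleucine fasted and 0.323, 0.248, 0.209 and 0.402 CPM in low isoleucine refed libraries, with every refed library below every fasted one. The control libraries had 0.142, 0.409, 0.311 and 0.160 CPM fasted and 0.121, 0.269, 0.240 and 0.198 CPM refed, which overlapped. Refeeding gave a log2 fold change of -1.03, SE 0.35, adjusted p = 0.0425 with low isoleucine and a log2 fold change of -0.29, SE 0.40, adjusted p = 0.694 with the control diet. At under 1 CPM this gene passed the filter on low counts only through the low isoleucine fasted group: all 4 of those libraries reached the 0.324 CPM it asks for, and 3 of the other 12 did. A test against that group is therefore not independent of the filter, and without the filter the low isoleucine change had an adjusted p of 0.110. The call was lost under 13 of the 26 alternatives in all (adjusted p up to 0.112). It also shares exon sequence with D10Wsu102e on the opposite strand, which had a log2 change of 0.04 (adjusted p = 0.891) in that comparison.

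In the cytosolic branch only Shmt1 passed. Shmt1, the cytosolic serine hydroxymethyltransferase (ENSMUSG00000020534, chr11:60788104-60811718, minus strand), had 172, 193, 176 and 178 CPM in low isoleucine fasted and 293, 239.6, 255 and 239 CPM in low isoleucine refed libraries, without overlap. The log2 fold change of 0.52, SE 0.12, adjusted p = 0.00529 passed under all 27 alternatives. On the control diet the values were 231, 222, 184 and 184 CPM fasted and 250.4, 284, 260.0 and 202 CPM refed, a log2 fold change of 0.28, SE 0.12, adjusted p = 0.123. That control-diet change passed when control refed library 4 was left out (log2 0.36, adjusted p = 0.0370) and when libraries were scaled by total count alone (0.38, adjusted p = 0.0275). Scaling by total count moved the median log2 refeeding change of all genes from 0.01 to 0.14 for control mice and from 0.02 to 0.13 for low isoleucine mice. With that scaling 1896 genes rose and 747 fell in control mice, where TMM scaling gave 1329 and 1223, and 2094 rose and 1153 fell in low isoleucine mice, where TMM gave 1433 and 1761. Relative to those medians Shmt1 stood 0.27 above on the control diet under TMM and 0.25 above under total-count scaling.

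Mthfd1, the trifunctional cytosolic enzyme (ENSMUSG00000021048, chr12:76255298-76319803, plus strand), was the steadiest of the 10. Its means were 166 ± 10.1 CPM (SD, n = 4) and 159 ± 16.3 CPM (SD, n = 4) in control fasted and refed livers, and 162 ± 8.80 CPM (SD, n = 4) and 174 ± 9.14 CPM (SD, n = 4) in low isoleucine fasted and refed livers. The refeeding log2 changes were -0.06 (adjusted p = 0.732) and 0.11 (adjusted p = 0.445), and the first turned to 0.06 under total-count scaling. Aldh1l1, the abundant cytosolic formyl-tetrahydrofolate dehydrogenase (ENSMUSG00000030088, chr6:90486427-90600203, plus strand), had 379.7, 432, 393 and 455 CPM in low isoleucine fasted and 670.3, 471, 545 and 527 CPM in low isoleucine refed libraries. All 4 refed libraries were above all 4 fasted ones, but the log2 fold change of 0.42, SE 0.17, adjusted p = 0.0938 did not pass. On the control diet it had 612, 886, 563 and 592 CPM fasted and 475, 638, 374 and 526 CPM refed, a change of the opposite sign (log2 fold change of -0.40, SE 0.17, adjusted p = 0.127).

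Counted by separation rather than by model, 2 of the 8 members other than Aldh1l2 on the control diet (Psph and Mthfd2) had all refed libraries above all fasted ones, where 9.5% of all tested genes did. In low isoleucine mice 5 of 8 did (Psat1, Psph, Mthfd2, Shmt1 and Aldh1l1), where 11.6% of all tested genes did. The sets of libraries in the 2 refeeding comparisons share none, but each refeeding comparison shares its groups with the diet comparisons that follow.

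Diet alone moved none of the 9 tested genes past the threshold in either feeding state. In fasted livers Aldh1l1 had separated groups, lower on low isoleucine. In refed livers Psat1 and Mthfd2 had 4.21-fold and 3.71-fold higher fitted levels on low isoleucine, but their libraries overlapped those on the control diet. In edgeR 0 of 9 members passed in fasted livers, where 0.771% of all tested genes did, and 0 of 9 in refed livers, where 0.174% did. At an unadjusted p under 0.05 there were, leaving out Aldh1l2, 1 of 8 in fasted livers (10.8% of all genes) and 4 of 8 in refed livers (9.76% of all genes). DESeq2 called 1 member in each state, Aldh1l1 in fasted livers and Mthfd2 in refed livers, where it called 2.45% and 1.15% of all genes.

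Aldh1l1 in fasted livers was at 663 ± 149.6 CPM (SD, n = 4) on the control diet and 415 ± 34.8 CPM (SD, n = 4) on low isoleucine, a log2 fold change of -0.68, SE 0.17, adjusted p = 0.0861. All 4 low isoleucine libraries were below all 4 control libraries, which was so for 4.4% of all tested genes. DESeq2 gave an adjusted p of 0.0105, and without control fasted library 2, the highest at 886 CPM, the log2 change in edgeR was -0.51 (adjusted p = 0.264). Summed hepatocyte markers in the same comparison went the other way, 68008 ± 14187 CPM on the control diet and 95711 ± 8321 CPM on low isoleucine (SD, n = 4), with 0 of 5 markers past the threshold. Gm15756, an antisense gene that shares exon sequence with Aldh1l1, had a log2 change of -0.52 (adjusted p = 0.681).

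Aldh1l2 in fasted livers was at 0.256 ± 0.127 CPM (SD, n = 4) on the control diet and 0.608 ± 0.105 CPM (SD, n = 4) on low isoleucine, a log2 fold change of 1.24, SE 0.36, adjusted p = 0.138. All 4 low isoleucine libraries were above all 4 control ones, in the group through which the gene passed the filter; without the filter the adjusted p was 0.300. The ratio of Aldh1l2 to Aldh1l1, per kb, when fasted was 0.0228% ± 0.00920 for control and 0.0887% ± 0.0179 for low isoleucine mice (SD, n = 4). In refed livers the ratio was 0.0255% ± 0.00970 on the control diet and 0.0324% ± 0.00967 on low isoleucine. The fasted libraries on low isoleucine (0.0769% to 0.115%) lay above every other library, the next highest being 0.0459%. Aldh1l2 passed the filter through that group, and each gene of the ratio was already separated by diet in fasted livers. The separation of the ratio is therefore no independent result. In the authors' deposited table the fasted diet change was -0.69 (adjusted p = 0.161) for Aldh1l1 and 1.23 (adjusted p = 0.0863) for Aldh1l2, on the log2 scale.

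The refed diet comparison turned on a few libraries. Psat1 had 2.23 ± 1.62 CPM (SD, n = 4) on the control diet and 9.55 ± 8.39 CPM (SD, n = 4) on low isoleucine, a log2 fold change of 2.08, SE 0.65, adjusted p = 0.290. Mthfd2 had 2.32 ± 1.09 CPM (SD, n = 4) and 8.62 ± 8.59 CPM (SD, n = 4), a log2 fold change of 1.89, SE 0.56, adjusted p = 0.250. In both genes low isoleucine libraries 1, 2 and 4 were above all control libraries and library 3 was inside the control range. Without library 3 Mthfd2 passed (log2 2.24, adjusted p = 0.0461) and Psat1 did not (2.43, adjusted p = 0.111). Without library 4 the values were 0.94 for Mthfd2 (adjusted p = 0.710) and 1.31 for Psat1 (adjusted p = 0.736). Library 3 had the highest Kupffer marker sum of its group, 270 CPM against 128 to 150 in the other 3, and library 4 had the lowest, 128 CPM. Endothelial, stellate and lymphocyte sums were likewise highest in library 3 and lowest in library 4 of the group. Summed markers of cholangiocytes, the bile duct cells, went the other way. They were 3.05 CPM in library 3, the lowest of all libraries, and 6.80 CPM in library 4, the highest. In this comparison 0 of 6 Kupffer and 0 of 4 cholangiocyte markers passed. The part of any of these cells in the Psat1 and Mthfd2 values was not tested.

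Psph followed with a log2 fold change of 0.46, SE 0.21, adjusted p = 0.481, at 3.56 ± 0.650 CPM (SD, n = 4) on the control diet and 4.91 ± 1.62 CPM (SD, n = 4) on low isoleucine. Mthfd1l was the only gene with separated groups, all 4 low isoleucine libraries being below all 4 control libraries, as in 2.24% of all tested genes. Its log2 fold change of -1.33, SE 0.42, adjusted p = 0.286 was -0.62 without control refed library 4 (adjusted p = 0.521). Shmt1, Mthfd1 and Aldh1l1 lay within 0.14 of 0 on the log2 scale (adjusted p = 0.687 or more), and Shmt1 changed sign when single libraries were left out. The authors' deposited table gave log2 changes of 2.08 (adjusted p = 0.179) for Psat1, 1.88 (adjusted p = 0.149) for Mthfd2, -1.32 (adjusted p = 0.170) for Mthfd1l and 0.46 (adjusted p = 0.458) for Psph. None of the members listed in that table passed 0.05 in either feeding state.

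Averaged over the feeding states, 0 of 9 members passed for diet in edgeR, where 1.51% of all tested genes did; at an unadjusted p under 0.05 there were 3 of 8 without Aldh1l2, where 14.3% of all genes were. The largest averaged change was in Psat1, log2 fold change of 1.65, SE 0.52, adjusted p = 0.133, and the adjusted p was 0.0392 in DESeq2, which called 1 of 9 members and 4.07% of all genes, and 0.0442 in edgeR without low isoleucine refed library 3. Mthfd2 had 1.16 (adjusted p = 0.232) and Aldh1l2 0.87 (adjusted p = 0.110). Psat1 was the only one of these with a positive fitted diet change above 1 in both states, 1.22 fasted and 2.08 refed.

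Whether refeeding acted differently on the 2 diets was tested as an interaction, and 0 of 9 members passed. No gene of the 14920 did in edgeR (0%), 6.22% had an unadjusted p under 0.05, and DESeq2 called 0.241%. Among members 2 had an unadjusted p under 0.05 in edgeR and DESeq2 called 0 of 9. Aldh1l1 had the smallest adjusted p, with an interaction of 0.81 (SE 0.24, adjusted p = 0.543), from the opposite signs of its refeeding changes. Mthfd1l had -1.66 (adjusted p = 0.684). The larger refeeding rise of Mthfd2 on low isoleucine gave 1.46 with an SE of 0.89 (adjusted p = 0.896), and that of Psat1 0.85 with an SE of 1.05 (adjusted p = 0.994). Neither rise is shown to differ between the diets.

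Psat1 and Mthfd2 were among the most variable genes of the low isoleucine refed group. The SD of their log2 CPM over the 4 libraries was 1.51 for Psat1 and 1.55 for Mthfd2, where the median over 12079 genes was 0.21, and they ranked 38 and 36 from the most variable. Among control refed libraries Psat1 had an SD of 1.04 (rank 248 of 12180) and Mthfd2 0.71 (rank 788). Psph varied less, with 0.43 in low isoleucine refed livers. Mthfd1 was at 0.07 there, rank 11252 of 12079.

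In refed livers Psat1, Mthfd2 and Psph moved together from library to library. Within the 8 refed libraries, log2 CPM of Psat1 and Mthfd2 had Pearson's r = 0.965 (exact permutation p = 0.000446, adjusted 0.00149 over 6 relations) and Spearman's rho = 0.952 (exact permutation p = 0.00114, adjusted 0.00685). Without the 2 libraries farthest from the Psat1 median, r was 0.920, and after removing each diet's mean it was 0.952. Mthfd2 and Psph had r = 0.960 (exact permutation p = 0.000496, adjusted 0.00149) and rho = 0.905 (adjusted exact permutation p = 0.0137), 0.890 without the 2 farthest libraries. Psat1 and Psph had r = 0.915 (exact permutation p = 0.00144, adjusted 0.00288) and rho = 0.881 (adjusted exact permutation p = 0.0145), and r = 0.795 without the 2 farthest. In the 8 fasted libraries, where all 3 genes were low, r was 0.773 for Psat1 and Mthfd2 (exact permutation p = 0.0294, adjusted 0.0441), with rho = 0.571 (exact permutation p = 0.151, adjusted 0.227). After removing each diet's mean the fasted r was 0.562. With diet means kept, the fasted r was -0.248 for Psat1 and Psph (exact permutation p = 0.545) and 0.181 for Mthfd2 and Psph (exact permutation p = 0.663). Their rho values were -0.310 and 0.190 (exact permutation p = 0.462 and 0.665). These pairs were looked at because earlier results of these data had shown the genes to be raised, and the libraries share one scaling. The permutations shuffled libraries across both diets, so their p-values do not allow for the diet difference. The r values after removing diet means were not tested. High r was not particular to these pairs: in the same refed libraries Shmt2 and Rfng had 0.985, and Mthfd1l and Otud7b 0.971, though those were picked for likeness.

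**Figure D4:**
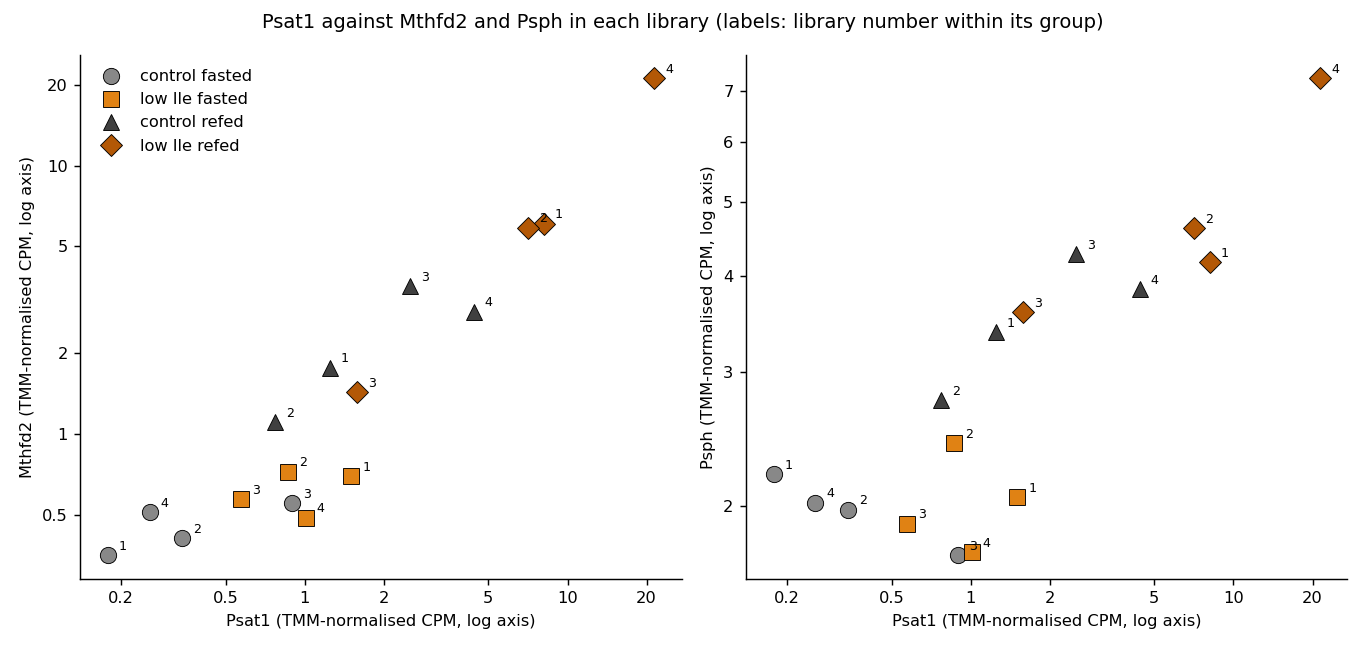
Psat1 (horizontal axis, CPM, log axis) against Mthfd2 (left) and Psph (right) in each of the 16 libraries, with colour and shape for the group and the library's number within it. The refed libraries run along a line from control refed library 2 (Psat1 0.773 CPM) to low isoleucine refed library 4 (21.4 CPM), with low isoleucine refed library 3 (1.59 CPM) among the control refed ones.

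Over all 16 libraries, the genes with profiles most like each member were sought among 11196 genes. The likeness measure was Pearson's r of log2 CPM, a description without a test that also carries the shift between fasted and refed livers. Mthfd2 was most like Cars (0.974), Psph (0.962) and Sars (0.961), the first and the last being cytosolic transfer RNA ligases for cysteine and serine. Psph was most like Cars (0.968), Mthfd2 (0.962) and Yars, the tyrosine ligase (0.947). Psat1 was most like Gars, the glycine ligase (0.960), Mthfd2 (0.947) and U2af1, a splicing factor gene (0.911). Within the 8 refed libraries these values were 0.809 to 0.972. Within the 8 fasted libraries they were lower: 0.509 for Mthfd2 and Cars, 0.424 for Mthfd2 and Sars, 0.181 for Mthfd2 and Psph, 0.446 for Psph and Cars, 0.537 for Psph and Yars, 0.866 for Psat1 and Gars, 0.773 for Psat1 and Mthfd2 and 0.603 for Psat1 and U2af1. Shmt2 was most like Rfng (0.965), Hdgfl2 (0.961) and Alad (0.959), the last an enzyme of haem synthesis. Shmt1 was most like Ift172 (0.920) and Srebf1 (0.908), the gene of the lipogenic factor SREBP1, and Mthfd1l like Otud7b (0.919). Mthfd1, Aldh1l1 and Aldh1l2 had no gene at 0.9 or above.

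The balance of the 2 folate branches was read from ratios per kb of exon. Shmt2 stood at 63.2% ± 9.89 of Shmt1 when fasted and 61.1% ± 12.3 when refed in control mice, and at 71.1% ± 12.3 and 72.4% ± 19.2 in low isoleucine mice (SD, n = 4), with overlapping ranges in all groups. Mthfd2 was 0.354% ± 0.0809 of Mthfd1 when fasted and 1.93% ± 1.04 when refed in control mice, and 0.494% ± 0.113 and 6.46% ± 6.71 in low isoleucine mice. The highest library reached 16.3%, so that even there the Mthfd2 transcript was a small part of the Mthfd1 level. A related mitochondrial gene, Mthfd2l, is not in this ratio. In CPM, not per kb, it had means of 0.717 fasted and 0.934 refed on the control diet. On low isoleucine the Mthfd2l means were 0.861 fasted and 0.816 refed, and it passed in no comparison. Mthfd1l was 0.623% ± 0.191 of Mthfd1 when fasted and 1.26% ± 1.00 when refed in control mice. In low isoleucine mice it was 0.810% ± 0.333 fasted and 0.458% ± 0.107 refed (SD, n = 4), the opposite direction to Mthfd2. Fasted and refed ranges of this ratio overlapped on both diets. Ratios compare transcripts, not enzyme amounts.

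Beyond the 10 genes, 30 others of serine, glycine and folate metabolism were examined, of which 29 were tested. None passed for diet in fasted or refed livers, averaged, or for the interaction. With refeeding, 4 rose and 3 fell on the control diet, 24.1% of those tested beside 17.1% of all tested genes. On the low isoleucine diet 3 rose and 3 fell, 20.7% beside 21.4% of all tested genes, so both shares lay near the background. Their median log2 change was -0.05 on the control diet, beside 0.01 over all tested genes, and -0.01 on the low isoleucine diet, beside 0.02. Slc1a4, a transporter of serine and other small neutral amino acids, rose on both diets, from 2.01 to 6.81 CPM on the control diet (log2 fold change of 1.76, SE 0.37, adjusted p = 0.00426) and from 2.11 to 9.33 CPM on low isoleucine (log2 fold change of 2.15, SE 0.37, adjusted p = 0.000766). Atic and Gart, enzymes of purine synthesis that consume formyl-folate, rose on both diets by smaller amounts: Atic by 0.54 (adjusted p = 0.00237) and 0.58 (adjusted p = 0.00105), and Gart by 0.31 (adjusted p = 0.0379) and 0.28 (adjusted p = 0.0462), on the log2 scale. The Gart calls were lost under 7 of 27 alternatives on the control diet (adjusted p up to 0.121) and under 17 of 27 on low isoleucine (adjusted p up to 0.147). Ppat and Pfas, the other 2 genes of that list, did not pass.

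A folate carrier and a serine-degrading enzyme fell with refeeding on both diets. Slc25a32, the mitochondrial folate carrier, was at 17.4 CPM in control fasted and 6.99 CPM in control refed livers (log2 fold change of -1.31, SE 0.18, adjusted p = 0.000152), and at 17.7 and 6.41 CPM on low isoleucine (log2 fold change of -1.46, SE 0.18, adjusted p = 3.36e-05). Its groups did not overlap on either diet. Sds, the serine dehydratase that turns serine into pyruvate, was at 114 and 30.4 CPM on the control diet (log2 fold change of -1.90, SE 0.37, adjusted p = 0.00274), and at 68.2 and 29.7 CPM on low isoleucine (log2 fold change of -1.20, SE 0.36, adjusted p = 0.0279), where its groups overlapped. The Sds call on low isoleucine was lost under 8 of 27 alternatives (adjusted p up to 0.0870).

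The remaining calls were on 1 diet each. In low isoleucine mice Sfxn1, the mitochondrial serine carrier, fell with refeeding (log2 fold change of -0.46, SE 0.13, adjusted p = 0.0152), a call lost under 4 of 27 alternatives (adjusted p up to 0.0732). On the control diet Dmgdh, a dimethylglycine dehydrogenase that feeds mitochondrial folate, fell (log2 fold change of -0.47, SE 0.15, adjusted p = 0.0398) and Tyms, thymidylate synthase, rose (log2 fold change of 0.45, SE 0.15, adjusted p = 0.0440). The Dmgdh call was lost under 11 of 27 alternatives (adjusted p up to 0.144) and the Tyms call under 16 of 27 (adjusted p up to 0.142). In the other diet these genes had log2 changes of -0.37, 0.22 and -0.01 in the same order, and no interaction passed. For Sfxn1 that control-diet fall lay just outside the threshold in edgeR (adjusted p = 0.0506), with all refed libraries below all fasted ones. The glycine cleavage genes Gldc, Amt, Gcsh and Dld passed in no comparison.

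**Figure D5:**
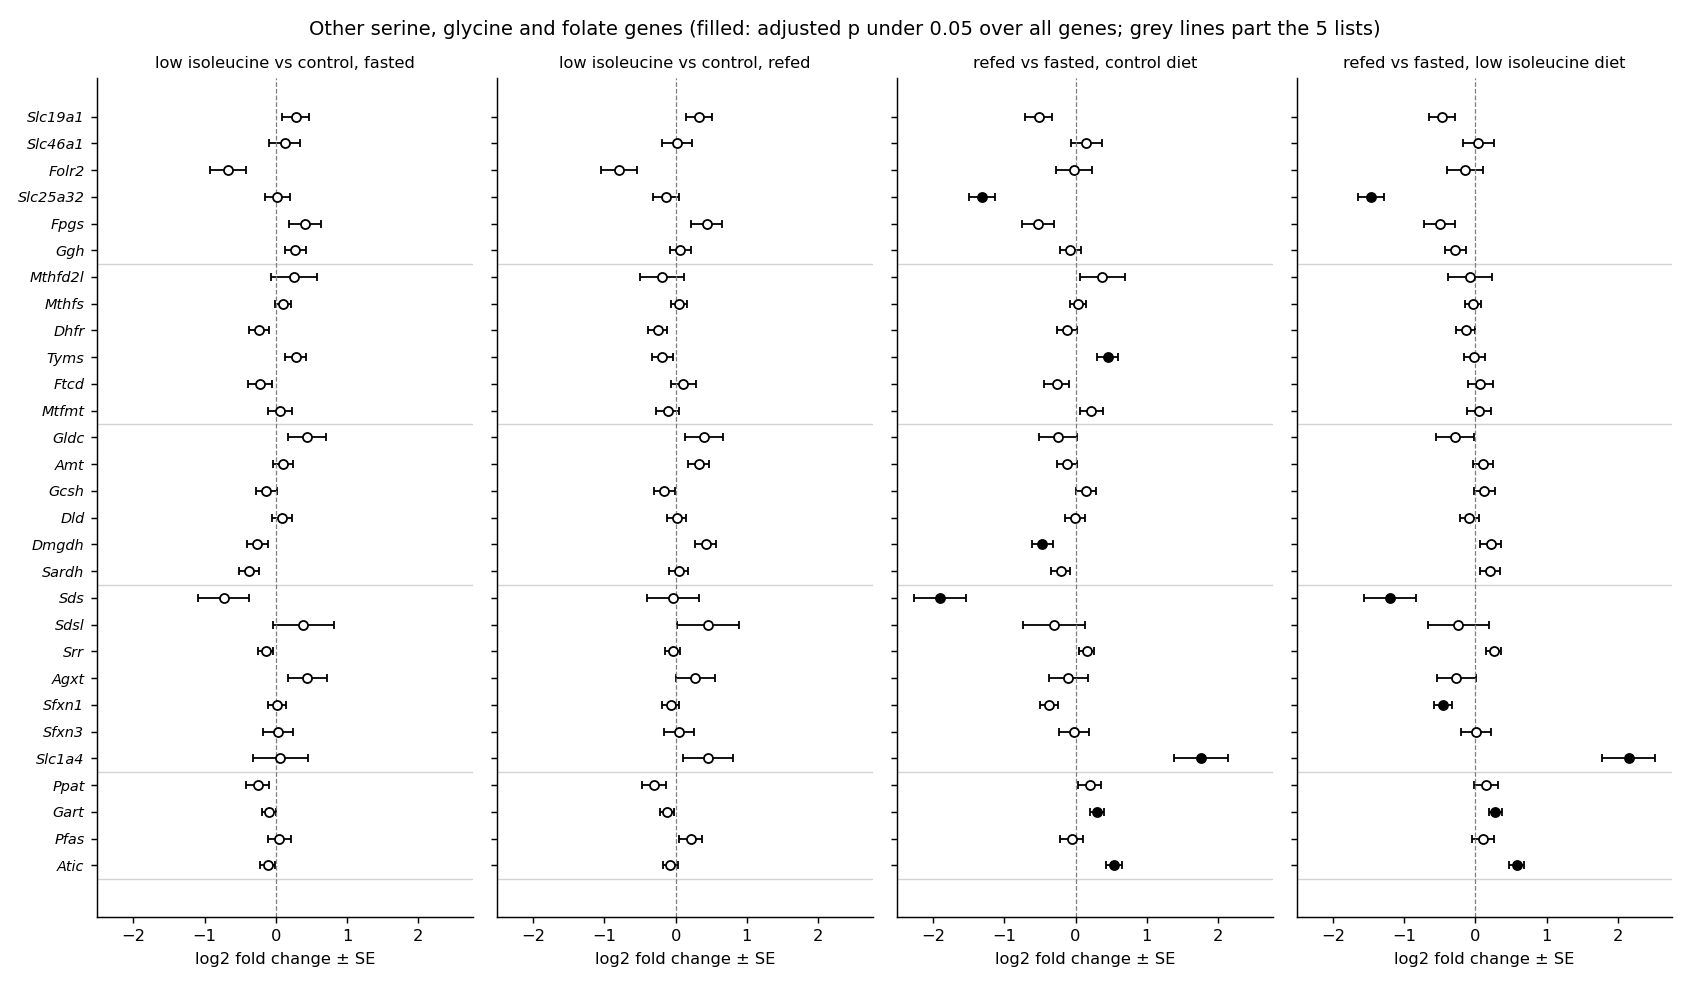
Log2 fold change ± SE (horizontal axis) of the 29 tested genes outside the 10, in the 2 diet and the 2 refeeding comparisons; grey lines part the lists (folate uptake, other folate steps, glycine cleavage and methylglycine demethylation, serine breakdown and transport, purine synthesis), and filled points passed an adjusted p of 0.05 over all genes. Slc1a4 lies farthest to the right and Slc25a32 and Sds farthest to the left in the refeeding panels, and the diet panels hold no filled point.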

How the data were processed

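The study deposited 1 table of expected counts per gene for 16 liver libraries; per the labels' protocols, RNA was poly-A selected into stranded libraries, spread over sequencing lanes, and the lanes merged before the authors estimated expression. Which aligner and genome build were used is not given in the sources used here. Of tools, edgeR, limma and R 3.5.3 appear in the submitters' processing notes, with no role. Per the file headers, 2 further tables hold the authors' diet comparisons as log2 fold changes and log2 CPM, p-values with Benjamini-Hochberg adjustment, and an F score; only the fold changes and adjusted p-values were quoted.

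Expected counts (10.2% of values not whole) were rounded. Of 51912 identifiers 51633 matched a symbol. Genes passing filterByExpr (minimum count 10, minimum total 15; 14920 genes) were scaled by TMM and tested in edgeR 4.0.16 (R 4.3.3) with robust quasi-likelihood fits over all 16 libraries, 1 mean per group; the script was checked on simulated counts. CPM per kb used merged GENCODE M21 exons. Alternatives were RLE, upper-quartile and total-count scaling, no filter, a filter of 1 CPM in 4 libraries, DESeq2 1.42.0, limma-voom (limma 3.58.1), non-robust fits, unrounded counts, compared groups only, a replicate block, and leaving out each library. Promoter windows came from RefSeq (GRCm38.p6). Likeness was Pearson's r of log2(CPM + 0.1), up to 3 genes per member, named from r of 0.9. All 10 members were named, and genes of the 5 pathway lists that passed in some comparison. One gene of those lists was left out and is not reported here. The members and lists were chosen with earlier results of these data known. Total counts per library bound the precision: low genes such as Phgdh rest on 0 to 13 counts.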

Additional observations from a re-analysis of the deposited data

Results flagged for a closer look

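In 40 groups of 4 libraries (10 genes in 4 groups), 3 held 1 library set apart from the other 3 by more than Dixon's critical ratio for 4 values; chance flags about 1 in 20 groups. Shmt2 was at 80.4 CPM in control fasted library 3, where the others had 108 to 114 CPM. Aldh1l1 was at 886 CPM in control fasted library 2, where the others had 563 to 612 CPM. Mthfd1l was at 4.24 CPM in control refed library 4, where the others had 1.11 to 1.40 CPM.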

How the results depend on the processing

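Counts of members past the threshold depended on the setting in 5 of the 6 comparisons. With DESeq2, 1 member passed for diet in fasted livers (Aldh1l1, lower), 1 in refed livers (Mthfd2, higher) and 1 averaged over both (Psat1, higher), where edgeR had 0 each. The refeeding count on the control diet, 3, became 1 (Psph) without the low-count filter and with limma-voom, and 4 with total-count scaling. On low isoleucine the 5, Aldh1l2 included, became 4 without the filter and with the 1 CPM filter and 7 with the compared groups only. Leaving out 1 library at a time gave 1 to 3 for refeeding on the control diet and 4 to 6 for refeeding on low isoleucine. For diet it gave 0 to 1 in refed livers, 0 to 1 averaged and 0 in fasted livers, and for the interaction 0. The letters RL, R, L and N in the titles, whose meaning the labels do not give, are shared between groups. Same-letter deviations had a median correlation of 0.0354 (24 pairs, 9 over 0.1). Deviations of libraries with other letters had -0.0227 (72 pairs, 18 over 0.1). Whether the letters pair libraries was not tested. With those letters as a replicate block, 2 members passed on the control diet (Psat1 lost, adjusted p = 0.0675) and 4 on low isoleucine (Aldh1l2 lost, adjusted p = 0.0666).

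The reversals were as follows, none of a change that had passed. Diet in fasted livers: Shmt2 (main -0.02) was 0.00069 with total-count scaling, 0.0075 with the replicate block and -0.12 to 0.057 leaving out libraries; Psph was -0.064 to 0.098, Mthfd1 -0.070 to 0.0031. Diet in refed livers: Shmt1 -0.058 to 0.096. Refeeding on the control diet: Mthfd1 0.059 with total-count scaling, Aldh1l2 (main -0.29) -0.49 to 0.024. All 120 group means kept within 1 SD under other scalings. Over all genes, the diet count in fasted livers was 115, with 77 to 365 under other settings and 6 to 222 leaving out libraries; in refed livers 26, 3 to 172 and 3 to 89; averaged 226, 186 to 607 and 115 to 473; interaction 0, 0 to 36 and 0 to 1; refeeding 2552, 1729 to 2992 and 1817 to 2743 for control mice, and 3194, 2583 to 3652 and 2423 to 3601 for low isoleucine mice. Aldh1l2 was not tested under the filter of 1 CPM. Depth limits Phgdh and Aldh1l2.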
